A study of Rattus norvegicus with 8 samples.

Results

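Monocyte identity genes were examined as a set of 8: Csf1r, Adgre1, Clec4a3, Fcgr3a, Fn1, Tgfbi, Vcan and Cebpb. They were chosen by name, with earlier results of these data known. Every probe set annotated with exactly 1 gene symbol equal to one of these names was a member. This gave 12 probe sets of the 31042 that measure transcripts, 1 for each gene except Vcan, which had 5. Whole blood came from male Wistar rats, bought at 7 weeks of age, acclimated for 1 week on normal chow and then kept for 8 weeks on that diet or on a high-fat diet. Both groups were fasted overnight before blood was taken on day 56. Of the 10 rats in each diet group, 4 per group have an array here, and the labels call them biological replicates. The arrays measure RNA by short probes near the 3' end of each transcript. The diet with mulberry leaf powder is not analysed here.

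Blood monocytes arise in the bone marrow under colony stimulating factor 1, which signals through the receptor tyrosine kinase Csf1r, and under transcription factors that include PU.1 and the C/EBP family. Classical monocytes carry matrix and adhesion genes such as Fn1, Tgfbi and Vcan, while non-classical monocytes carry more Fc receptor. In the rat, the surface protein encoded by Spn separates these subsets. Of the 8 proteins, 4 are surface receptors, 3 are extracellular matrix proteins and 1 is a transcription factor.

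The deposited values read as log2 levels, with a median of 6.6 and quartiles of 6.22 and 7.13 in each of the 8 arrays. Differences between arrays were very small, with a median SD of 6.07e-06 per probe set and a largest SD of 0.139. Such differences cannot be read as ratios of RNA on a log2 scale, and the degree of compression may not be the same for every probe set. No fold changes are given. A difference is high-fat minus normal in deposited units, or in multiples of the pooled SD within the diet groups, called within-group SDs. A scaled level is a gene's level minus its mean over the 8 arrays, divided by its SD. The level of a probe set is not set against that of another as an amount of RNA. Markers of the labelled tissue were present, with a mean level of 15.09 for Hbb, the beta chain of hemoglobin, and 13.68 for Alas2, the erythroid enzyme of heme synthesis. Each member's brightest probe set lay above the median level of all probe sets, as did 9295 of 14217 genes.

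Of the 8 genes, 7 were high and low in much the same animals, Vcan by its brightest probe set differed in the order of the animals, and the diet groups of all 8 overlapped by that probe set. High-fat replicate 4 had the highest level of all 8 genes, which was the case for 14.0% of all genes. No member passed limma after adjustment over all probe sets. In whole blood, a difference in the number of monocytes and a difference in RNA per monocyte cannot be told apart.

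**Figure D1:**
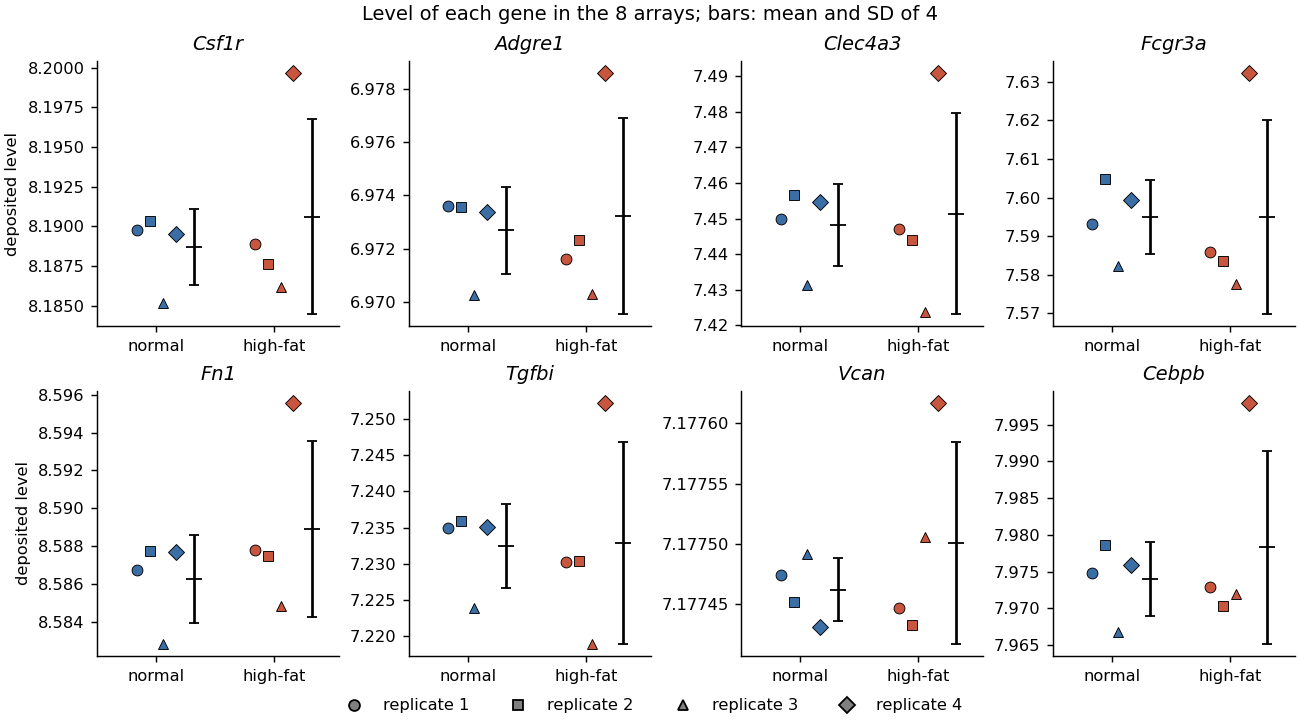
Deposited level (vertical axis, log2 scale, a separate range for each gene) of the brightest probe set of each gene in the 4 normal and 4 high-fat arrays. Symbols mark the replicate number, which the labels do not give as a pairing, and black bars give the mean and SD of 4. High-fat replicate 4 is the highest point in all 8 panels, and normal replicate 3 is the lowest in those of Csf1r, Adgre1, Fn1 and Cebpb.

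Among the receptors, Csf1r (probe set 1388784_at) had levels of 8.1898, 8.1903, 8.1852 and 8.1895 in normal replicates 1 to 4 and 8.1889, 8.1876, 8.1862 and 8.1997 in high-fat replicates 1 to 4. The 3 other high-fat animals lay within the range of the normal animals, and only high-fat replicate 4 lay above it. The means were 8.1887 ± 0.00238 (SD, n = 4) and 8.1906 ± 0.00614, and the difference of 0.0019 ± 0.0031 (SE) had an adjusted p of 1 by limma and an exact permutation p of 0.771.

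Adgre1 (1381311_at) encodes the adhesion G protein-coupled receptor known as F4/80 in mice. Its normal levels were 6.9736, 6.9736, 6.9702 and 6.9734, and its high-fat levels 6.9716, 6.9723, 6.9703 and 6.9786. Replicate 3 was the lowest animal in both groups, and the remaining normal animals lay close together, above the 3 lower high-fat animals. The difference of the means was 5.18e-04 ± 0.0019 (SE, n = 4 and 4; limma adjusted p = 1).

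Clec4a3 (1389553_at), a C-type lectin receptor of myeloid cells, had the widest spread of the 8 genes in deposited units. Its levels were 7.4499, 7.4565, 7.4314 and 7.4546 in the normal animals and 7.4470, 7.4441, 7.4237 and 7.4909 in the high-fat animals. The range of 0.0672 was set by high-fat replicates 4 and 3, and the normal animals lay between them. The diet difference was 0.00326 ± 0.014 (SE, n = 4 and 4; limma adjusted p = 1).

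Fcgr3a (1373523_at), which RefSeq also names Fcgr4, encodes a receptor for the constant part of immunoglobulin G, carried by non-classical monocytes and other cells. Normal levels were 7.5933, 7.6048, 7.5824 and 7.5994, and high-fat levels were 7.5859, 7.5837, 7.5777 and 7.6322. The group means were almost equal, with a difference of -5.83e-05 ± 0.0127 (SE, n = 4 and 4; limma adjusted p = 1). The difference without high-fat replicate 4 was -0.0125 ± 0.00562, or -1.58 within-group SDs (limma unadjusted p = 0.0693, adjusted p = 1). Those 3 high-fat animals lay below normal replicates 1, 2 and 4 and on both sides of normal replicate 3.

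Among the matrix genes, Fn1 (1370234_at) encodes fibronectin, the adhesive glycoprotein of plasma and matrix. It had levels of 8.5867, 8.5877, 8.5828 and 8.5877 in the normal animals and 8.5878, 8.5875, 8.5848 and 8.5956 in the high-fat animals. The difference of 0.00266 ± 0.00244 (SE, n = 4 and 4) was 0.726 within-group SDs (limma adjusted p = 1, exact permutation p = 0.4). Fn1 was the member whose brightest probe set stayed above normal without high-fat replicate 4, at 0.213 within-group SDs.

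Tgfbi (1371913_at), a secreted matrix protein induced by transforming growth factor beta, had levels of 7.2349, 7.2359, 7.2238 and 7.2351 in the normal animals. High-fat levels were 7.2302, 7.2303, 7.2189 and 7.2522. Replicate 3 was again the lowest animal of each group, and high-fat replicate 4 the highest of all. The difference of 4.66e-04 ± 0.00709 (SE, n = 4 and 4; limma adjusted p = 1) was far inside the spread.

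Cebpb (1387087_at) encodes C/EBP beta, a transcription factor of myeloid differentiation and acute phase responses. Normal levels were 7.9748, 7.9786, 7.9668 and 7.9759, and high-fat levels were 7.9730, 7.9703, 7.9720 and 7.9980. The 3 other high-fat animals lay within the normal range and replicate 4 lay above it. The difference was 0.00429 ± 0.00663 (SE, n = 4 and 4), with a limma adjusted p of 1 and an exact permutation p of 0.771.

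Vcan, the large chondroitin sulfate proteoglycan versican, was measured by 5 probe sets that did not all follow each other. The brightest, 1388054_a_at, had levels of 7.177474, 7.177452, 7.177492 and 7.177431 in the normal animals and 7.177447, 7.177433, 7.177506 and 7.177617 in the high-fat animals. Here normal replicate 3, the lowest normal animal for the 7 other genes, was the highest normal animal, and high-fat replicate 3 came next after high-fat replicate 4. The probe set with the widest range among the 5, 1371232_a_at, had normal levels of 6.464484, 6.464616, 6.464448 and 6.464438 and high-fat levels of 6.464622, 6.464437, 6.464343 and 6.465479, so that it was lowest in high-fat replicate 3.

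High-fat replicate 4 was the highest array for 4 of the 5 Vcan probe sets and for 11 of all 12 member probe sets, against 12.6% of all probe sets. The exception, 1371233_at, had normal levels of 5.973249, 5.973245, 5.973261 and 5.973265 and high-fat levels of 5.973312, 5.973266, 5.973294 and 5.973284. The lowest high-fat animal, replicate 2, stood just above the highest normal animal, replicate 4, and the 8 levels spanned 6.69e-05. Its level lay below the lower quartile of the arrays, 6.22. The difference of 3.43e-05 ± 1.0e-05 (SE, n = 4 and 4), or 2.28 within-group SDs, had a limma adjusted p of 1 and an exact permutation p of 0.0286, the smallest that 4 against 4 can give, and was higher in 4 of 4 high-fat animals. Subtraction of the array medians shifts all diet differences by -6.6e-05, more than this difference, and puts it at -0.532 within-group SDs.

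Set against Csf1r over the 8 arrays, the Vcan probe sets differed widely. Probe set 1371232_a_at had a Pearson r of 0.947 with Csf1r and a Spearman rho of 0.69 (exact permutation p = 0.00818 for r, 0.0409 adjusted over the 5). For 1388265_x_at, r was 0.913 (adjusted exact permutation p = 0.0497), and for 1388142_at it was 0.89 (0.0497). The brightest probe set, 1388054_a_at, reached 0.705 (0.145), and 1371233_at reached 0.0784 (0.863). Without high-fat replicate 4 these correlations were 0.621, 0.341, 0.306, -0.632 and -0.287 in that order. Among the 10 pairs of Vcan probe sets, 2 passed after adjustment by the exact permutation test. These were 1371232_a_at with 1388265_x_at (r = 0.977, rho = 0.571, adjusted p = 0.031, and r = 0.617 without the 2 most distant arrays) and 1388142_at with 1388265_x_at (r = 0.963, rho = 0.833, adjusted p = 0.0156, and r = 0.745).

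**Figure D2:**
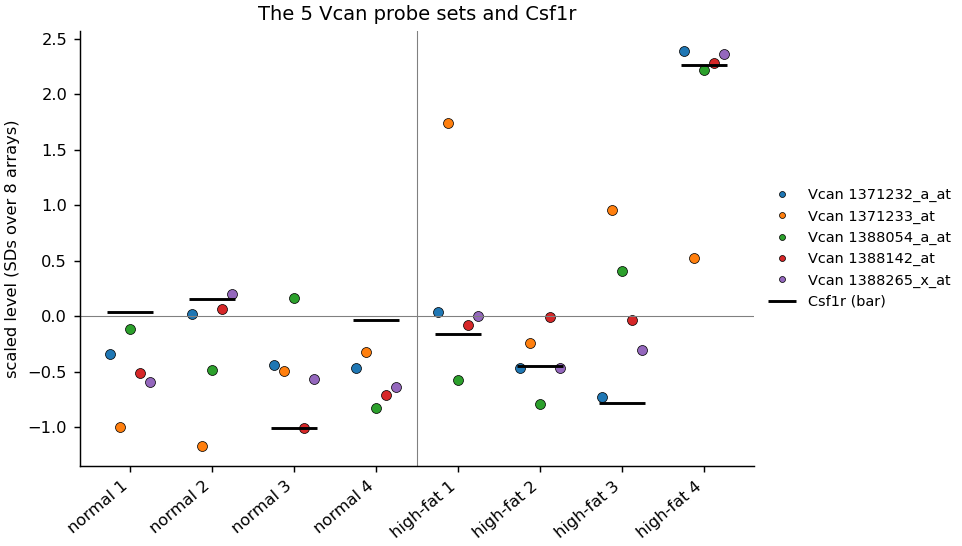
Scaled level (vertical axis, SDs over the 8 arrays) of the 5 Vcan probe sets, as coloured points, and of Csf1r, as a black bar, in each array. In high-fat replicate 4, 4 of the 5 probe sets lie between 2.22 and 2.39 beside Csf1r at 2.26, while 1371233_at lies at 0.524 there and is highest in high-fat replicate 1, at 1.74.

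Diet was tested over all 31042 probe sets with limma. Of the 12 member probe sets, 0 passed an adjusted p of 0.05, against 0.0% of all probe sets. At a limma unadjusted p under 0.05 there was 1, the Vcan probe set 1371233_at (limma p = 0.0116, exact permutation p = 0.0286), against 2.25% of all. The same probe set was the 1 of 12 whose diet groups did not overlap, against 1.44% of all. Mean levels were higher in the high-fat group for 7 of the 8 genes by their brightest probe set, with Fcgr3a lower, where 47.4% of all genes were higher. That direction rested on a single animal. Without high-fat replicate 4, 1 of the 8 genes, Fn1, was higher and 7 were lower, where 46.0% of all genes were higher, and without normal replicate 3, 4 of the 8 were higher. Over the 8 genes the median difference was 0.295 within-group SDs, and -0.693 without high-fat replicate 4, against -0.0374 and -0.0637 over all genes. The 95% intervals of the 7 single-probe-set genes ran from -1.59 to 2.31 within-group SDs.

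**Figure D3:**
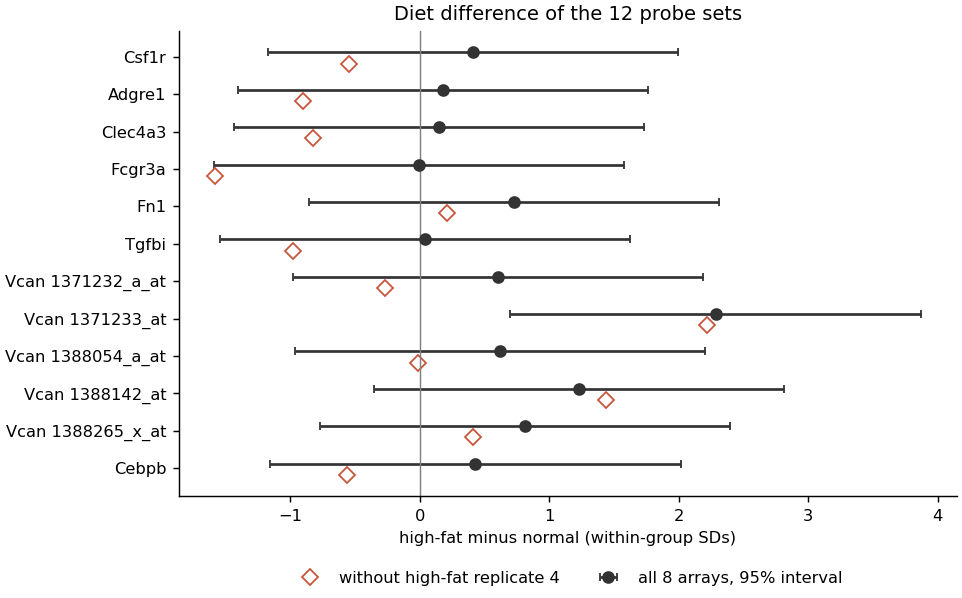
Difference between the diet groups (horizontal axis, high-fat minus normal in within-group SDs) for the 12 probe sets, with all 8 arrays as filled points with 95% limma intervals, and without high-fat replicate 4 as open diamonds. The interval of 11 probe sets includes 0, that of 1371233_at runs from 0.697 to 3.87, and the diamonds of 5 of the 6 non-Vcan genes above 0 stand to the left of it.

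Across animals, the 7 genes other than Vcan moved together. Pearson correlations over the 8 arrays were positive in all 21 of their pairs, from 0.899 to 0.994, with a median of 0.957. Spearman correlations ran from 0.619 to 1, with a median of 0.905. By exact permutation over the pairings of arrays, all 21 passed for Pearson r after adjustment over the 28 pairs of members (adjusted p from 4.63e-04 to 0.00982), and 17 passed for rho. With the diet means subtracted, r in these pairs ran from 0.922 to 0.996. The members were chosen with earlier results of these data known, so the p-values of these pairs are not independent support.

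High-fat replicate 4 stands apart from the other 7 arrays, so the same pairs were taken without it. The 21 correlations then ran from 0.598 to 0.987, with a median of 0.869, and 13 of them passed by the exact permutation test after adjustment over the 28 pairs. Without the 2 arrays farthest from the median of the first gene of a pair, they ran from 0.37 to 0.972, with a median of 0.881 over 6 arrays. The closest pair was Clec4a3 with Tgfbi (r = 0.994, rho = 0.976, exact permutation p = 4.96e-05), at 0.987 without high-fat replicate 4 and 0.972 without the 2 farthest arrays. Clec4a3 and Fcgr3a ordered the 8 animals identically (rho = 1, r = 0.966, exact permutation p = 2.48e-05, the smallest that pairings of 8 can give). The loosest of the 21 was Fcgr3a with Fn1, at r = 0.899, and at 0.598 without high-fat replicate 4.

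The animals at the low end were also shared. Normal replicate 3 and high-fat replicate 3 were the lowest arrays for 6 of the 8 genes, Csf1r, Adgre1, Clec4a3, Fcgr3a, Fn1 and Tgfbi, against 16.6% of all genes. At the upper end, high-fat replicate 4 followed by normal replicate 2 was the order of Csf1r, Clec4a3, Fcgr3a, Tgfbi and Cebpb, against 4.48% of all genes. These orders were chosen after the values were seen.

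Vcan by its brightest probe set differed from the other genes in this. Its 7 correlations ran from 0.518 to 0.763, and 0 passed the exact permutation test, adjusted or at an unadjusted p under 0.05 (lowest p = 0.102). Its rho ran from -0.119 to 0.0952. Without high-fat replicate 4 all 7 values of r were negative, from -0.829 with Fn1 to -0.403 with Cebpb. That with Fn1 passed (exact permutation p = 0.0196, adjusted p = 0.0393). The SD of this Vcan probe set over the 8 arrays was only 6.1e-05. Centring shifts all diet differences by -6.6e-05 and puts that of this probe set at -0.584 within-group SDs. Its values of r after centring are not given here.

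**Figure D4:**
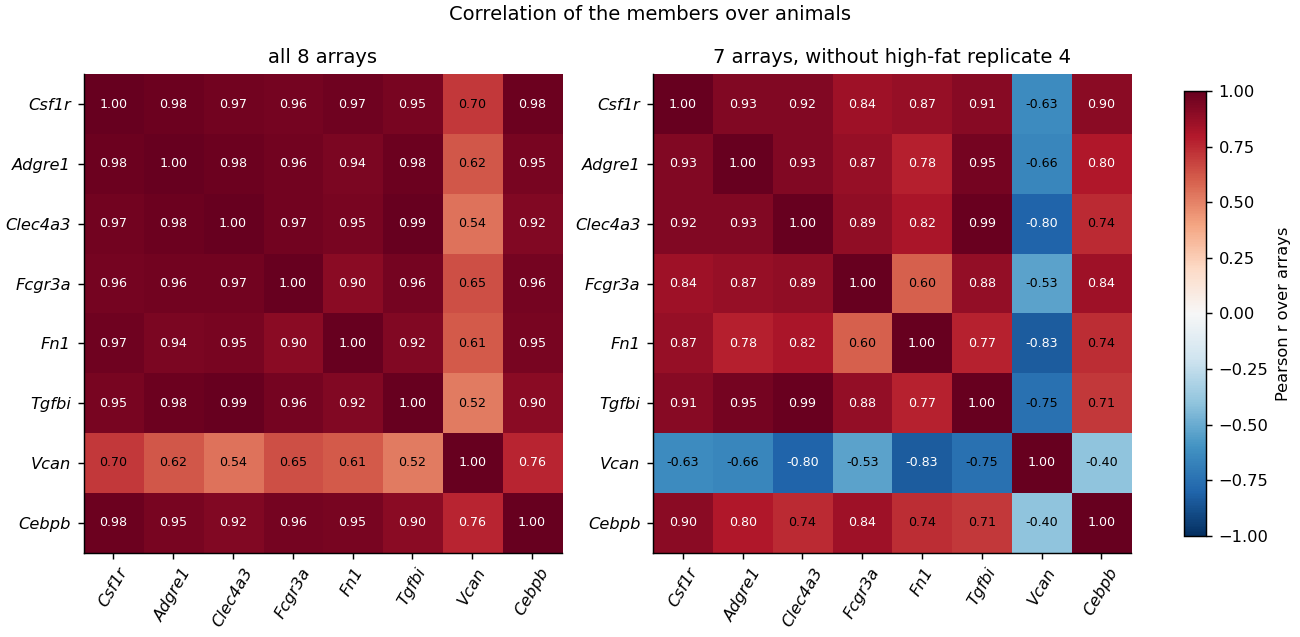
Pearson correlation of each pair of genes over all 8 arrays (left) and over the 7 arrays without high-fat replicate 4 (right), with 1 probe set per gene; colour and the printed number give r. The 21 pairs without Vcan are at or above 0.899 on the left and at or above 0.598 on the right, while the row of Vcan turns from positive to negative.

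Each gene was also set against the mean scaled level of the 7 others. Csf1r followed them most closely, with r = 0.995 (rho = 0.976, exact permutation p = 4.96e-05, 3.97e-04 adjusted over the 8). Cebpb had 0.979, Adgre1 0.978, Fcgr3a 0.966, Clec4a3 0.961, Fn1 0.947 and Tgfbi 0.944, each with an adjusted p from 7.28e-04 to 0.00385 by the exact permutation test. For Vcan r was 0.642 (adjusted exact permutation p = 0.121). Without high-fat replicate 4, r was 0.973 for Csf1r and 0.745 for Fn1, and -0.719 for Vcan.

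Spread over animals was wide for these genes compared with other probe sets in the table. The SD over the 8 arrays lay between percentiles 99.77 and 99.98 of all probe sets for the 7 genes other than Vcan, with Clec4a3 at 0.0201, Fcgr3a at 0.0176, Tgfbi at 0.00988 and Cebpb at 0.00951. Csf1r had 0.00443, Fn1 0.00368 and Adgre1 0.00266. The Vcan probe sets ranged from 2.3e-05 for 1371233_at to 3.64e-04 for 1371232_a_at, from percentile 84.2 to percentile 98.87. As the compression of the deposited values is not known, these SDs do not rank the genes by their biological variation.

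Because 7 of the genes moved together, the bases before annotated transcript starts were searched for letters that myeloid factors are known to prefer. RefSeq promoter windows of the GRCr8 assembly were found for 7 of the 8 genes, Fn1 being the other. The 250 bases before each annotated start were searched on both strands for GAGGAA and GGGGAA, purine-rich cores of the ETS family to which PU.1 belongs, and for TTGCNNAA, a C/EBP pattern. GAGGAA was in the windows of 4 of 7 genes, Adgre1, Clec4a3, Csf1r and Fcgr3a, and in 23.3% of the 33469 windows of all genes. GGGGAA was in those of 5 of 7, Adgre1, Csf1r, Fcgr3a, Tgfbi and Vcan, and in 20.0% of all. Adgre1 alone among the 7 held TTGCNNAA, which 9.22% of all windows held. Some windows start from an inner transcript start and reach into the annotated gene. Before the outermost RefSeq start, GAGGAA was found for 2 of the 7 genes, Adgre1 and Fcgr3a, GGGGAA for 3, Adgre1, Fcgr3a and Vcan, and TTGCNNAA for Adgre1. Clec4a3, Csf1r, Tgfbi and Cebpb had no match there. The window of Clec4a3 holds 0 bases before that start, that of Csf1r 23 and that of Tgfbi 129. That of Cebpb holds all 250 bases and had no match to any of the patterns. The shares over all genes are for whole windows only. Shown are 2 of the receptor genes that moved together and Vcan, which by its brightest probe set did not follow them. Each ends where the outermost RefSeq transcript of the gene begins. Capitals mark the matches, read 5' to 3' on the gene's strand.
Fcgr3a, GRCr8 chr13:85782386-85782635, plus strand: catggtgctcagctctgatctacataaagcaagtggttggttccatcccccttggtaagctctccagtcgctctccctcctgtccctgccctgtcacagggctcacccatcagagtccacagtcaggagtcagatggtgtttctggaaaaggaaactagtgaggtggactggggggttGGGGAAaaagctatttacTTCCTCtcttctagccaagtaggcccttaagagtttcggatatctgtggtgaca
Adgre1, GRCr8 chr9:2329190-2329397, plus strand: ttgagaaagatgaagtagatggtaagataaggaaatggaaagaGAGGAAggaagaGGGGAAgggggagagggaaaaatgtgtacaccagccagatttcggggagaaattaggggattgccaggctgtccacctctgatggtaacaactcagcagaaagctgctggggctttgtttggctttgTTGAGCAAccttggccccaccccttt
Vcan, GRCr8 chr2:22595956-22596205, minus strand: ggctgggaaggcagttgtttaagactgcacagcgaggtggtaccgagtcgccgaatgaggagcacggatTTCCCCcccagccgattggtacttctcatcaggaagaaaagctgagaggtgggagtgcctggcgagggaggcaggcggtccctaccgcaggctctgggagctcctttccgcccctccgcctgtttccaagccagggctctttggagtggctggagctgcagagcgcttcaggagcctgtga
In Fcgr3a the match to GAGGAA lies on the minus strand, printed as TTCCTC and beginning 54 bases before the start, and GGGGAA begins 72 bases before the start. A match is a description of these letters only, and binding was not measured.

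The genes whose pattern was most like the mean scaled level of the 8 members were looked for among genes at or above the median level. The 5 with the highest Pearson r over the 8 arrays were Nfkbia (0.993), an inhibitor of NF-kB, Cyfip1 (0.991), a regulator of actin assembly, the galactosyltransferase B4galt5 (0.991), the inhibitory receptor Pilra (0.99) and the calcium-binding protein S100a4 (0.987). Spearman rho was 0.976, 0.905, 0.976, 0.952 and 0.976 in that order. Without high-fat replicate 4, r was 0.952, 0.942, 0.953, 0.954 and 0.957. Of all 14217 genes, members included, 253 or 1.78% had r over 0.9, and 3.16% without high-fat replicate 4, so these values are a ranking and carry no p. Pilra and S100a4 were also on the lists of monocyte genes below. The diets overlapped for all 5, whose differences ran from 0.227 to 0.468 within-group SDs (limma adjusted p = 1), and each was below normal without high-fat replicate 4.

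Related monocyte genes were given by 5 lists. For the counts below, 47.4% of all genes had a higher mean in high-fat animals, and 46.0% without high-fat replicate 4. A limma unadjusted p under 0.05 was found for 2.0% of all genes. In the list of the Csf1 axis and lineage factors, 18 of 20 genes were measured and 0 passed limma, also 0 at an unadjusted p under 0.05 (2.0% of all genes). In high-fat animals 13 had a higher mean and 5 a lower mean, with a median difference of 0.179 within-group SDs, and without high-fat replicate 4 the counts were 7 and 11. The ligands of the receptor had negative r with the mean of the 8 members, -0.537 for Csf1 and -0.534 for Il34, which were -0.284 and -0.506 without high-fat replicate 4. Those with r over 0.9 were the adaptor Tyrobp (0.979), the orphan nuclear receptor Nr4a1 (0.957), Cebpd (0.927), Cebpg (0.924) and Klf4 (0.909), of which Tyrobp (0.932) and Klf4 (0.967) stayed over 0.9 without high-fat replicate 4. The 3 genes with the smallest p were Csf1, the growth factor receptor chain Csf2ra and the immediate early gene Egr1, at -1.24, 0.839 and 0.694 within-group SDs. The Csf1 probe set had an SD over the 8 arrays of only 1.89e-06 and a diet difference of -2.06e-06 in deposited units. With means over a gene's probe sets Csf1 was at -0.291 within-group SDs, and with centring Egr1 was at -0.921.

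Of 30 other surface genes of monocytes 23 were measured, 16 higher and 7 lower, with a median of 0.329 within-group SDs and 0 past limma, also 0 at an unadjusted p under 0.05. Without high-fat replicate 4 there were 7 higher and 16 lower. Pilra (r = 0.99), Cd14 (0.964), the coreceptor for bacterial lipopolysaccharide, Fcer1g (0.962), the signalling chain of Fc receptors, Spn (0.933), Tlr4 (0.92) and Sirpa (0.917) had r over 0.9 with the members, 6 of 23 against 1.78% of all genes. Of these 6, 3 stayed over 0.9 without high-fat replicate 4, Pilra, Spn and Sirpa. Cd14 was then at 0.817, Fcer1g at 0.802 and Tlr4 at 0.518. In that setting 3 of the 23 measured genes were over 0.9, against 3.16% of all genes. Cx3cr1 and Ccr2, chemokine receptors of the non-classical and classical subsets, had r of 0.488 and 0.738, which were -0.851 and -0.39 without high-fat replicate 4. Their diet differences of 0.84 and 0.702 within-group SDs turned to -1.1 and -0.59 when arrays were centred. Their SDs over the 8 arrays were only 1.32e-05 and 5.66e-05, where centring shifts all diet differences by -6.6e-05. The scavenger receptor Cd36 was the gene of this list whose diet groups did not overlap, at 1.32 within-group SDs (limma adjusted p = 1, exact permutation p = 0.0286), against 1.32% of all genes, and its r with the members was -0.0966.

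In the Clec4 family, 4 of 8 genes were measured, 3 higher and 1 lower, with 0 past limma, also 0 at an unadjusted p under 0.05, and a median of 0.081 within-group SDs. All 4 were highest in high-fat replicate 4, against 14.0% of all genes. Without that animal all 4 were lower in the high-fat group, where 46.0% of all genes were higher. Clec4a1, a neighbour of Clec4a3 in this family, had r = 0.968, Clec7a, the receptor for fungal beta-glucan, 0.859 and Clec4a 0.56. They were 0.857, 0.746 and -0.238 without high-fat replicate 4. Their differences were 0.367, 0.115 and -0.204 within-group SDs. That of Clec7a was -0.226 with centring and -0.463 with quantile normalization, which put that of Clec4a at 0. The Clec4a probe set had an SD over the 8 arrays of only 9.09e-07.

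Effector genes of monocytes include lysosomal, calcium-binding and phagocyte proteins. Of 24, 21 were measured, and 11 of these had r over 0.9, against 1.78% of all genes. They were S100a4 (0.987), the Src-family kinase Fgr (0.985), Aif1 (0.972), the macrophage perforin Mpeg1 (0.968), Cd68 (0.964), Psap (0.954), Grn (0.951), the galectin Lgals3 (0.948), the oxidase subunit Cybb (0.941), S100a6 (0.933) and Lst1 (0.901). Of these 11, 6 stayed over 0.9 without high-fat replicate 4, S100a4, Fgr, Aif1, Grn, Cybb and S100a6, and the lowest was Lst1 at 0.606. In that setting 6 of the 21 measured genes were over 0.9, against 3.16% of all genes. By diet 15 were higher and 6 lower, with a median of 0.215 within-group SDs, and 3 and 18 without high-fat replicate 4. By limma 0 passed after adjustment, and 1 had an unadjusted p under 0.05, against 2.0% of all genes. It was the protease gene Ctsb (limma p = 0.0489, exact permutation p = 0.0857, 1.6 within-group SDs, and -0.795 with centring). The cytokine Il1b and the protease inhibitor Cst3 were at -0.868 and -0.71. With quantile normalization Ctsb and Il1b were at 0.

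Among receptors and partners of fibronectin, Tgfbi and versican, 12 of 15 genes were measured, 10 higher and 2 lower, with 0 past limma, also 0 at an unadjusted p under 0.05. The median was 0.304 within-group SDs, and 0.0585 without high-fat replicate 4. The integrin chain Itgb2, the beta chain of leukocyte integrins, had r = 0.983 and Itgb1, a chain of the fibronectin receptor, 0.925, and 0.964 and 0.669 without high-fat replicate 4. The 3 with the smallest p were Tgfb1 at -1.6, Itga5 at -0.936 and Itgb1 at 0.739 within-group SDs. Tgfb1 and Itga5 had SDs over the 8 arrays of only 9.98e-07 and 2.21e-06, and diet differences of -1.27e-06 and -1.96e-06 in deposited units. Itgb1 was at -0.124 with centring and -0.707 with quantile normalization, which put Tgfb1 and Itga5 at 0.

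Markers of other blood cells were taken beside these values, since Fcgr3a and Cebpb are not made by monocytes alone. Mean scaled levels of the natural killer cell list, 8 of 8 genes measured, were -0.572, -0.238, -0.658 and 0.0538 in the normal animals and -0.0561, -0.155, -0.414 and 2.04 in the high-fat animals. High-fat replicate 4 thus stood far above the rest on this list as on the 8 members, for which it was at 2.15 and the other 7 animals between -0.833 and 0.179. Of the 8 natural killer genes 7 were highest in that animal, against 14.0% of all genes. All 8 had a higher mean in the high-fat group, against 47.4% of all genes, with a median of 0.708 within-group SDs and 0 past limma, also 0 at an unadjusted p under 0.05. With high-fat replicate 4 left out there were 6 higher and 2 lower, with a median of 0.157. The list's mean deposited level ranged from 7.4587 to 7.4612 in the normal group and from 7.4593 to 7.4663 in the high-fat group, and its part in the levels of Fcgr3a was not tested.

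The platelet list, 5 of 8 genes measured, went the other way, at -1.77 in high-fat replicate 4 and from -0.22 to 0.592 in the other animals. Its mean level ranged from 9.9107 to 9.9108 in the normal group and from 9.9105 to 9.9108 in the high-fat group. The neutrophil list, 8 of 12 measured, was at 0.505 in high-fat replicate 4 and at 0.606 in high-fat replicate 3, an animal low for the members. Its mean level ranged from 7.5424 to 7.543 and from 7.5425 to 7.5428 in the same order.

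T cell markers, 10 of 10 measured, were lowest in normal replicate 3, at -1.39, as 4 of the members were, but in high-fat replicate 4 they were at -0.311. B cell markers, 5 of 8 measured, were at -0.659 in normal replicate 3, -1.12 in high-fat replicate 3 and -0.223 in high-fat replicate 4. The mean scaled levels of these lists were set against that of the members. Over the 8 arrays r was 0.182 for T cells, 0.142 for B cells, 0.934 for natural killer cells and 0.421 for neutrophils. Without high-fat replicate 4 these were 0.877, 0.625, 0.458 and 0.277, where the 5 lists of monocyte genes ran from 0.638 to 0.952. Platelet and red cell lists had negative r both ways. Mean levels of the T cell list ranged from 8.6697 to 8.6698 in both groups, and those of the B cell list from 8.1906 to 8.1912 in both. Red cell markers, 8 of 10 measured, lay between -0.535 and -0.358 in the normal animals and at 0.907, 0.318, 0.894 and -0.242 in the high-fat animals, with mean levels from 10.8059 to 10.8069 and from 10.8069 to 10.8089. The part of these cells in the members' levels was not tested.

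Fibroblast and vessel wall markers were considered because Fn1, Tgfbi and Vcan are also made there, and liver cell markers because plasma fibronectin comes from the liver. Of 8 stromal genes 3 lay above the median level of the arrays, and of 7 liver genes 2 did. In high-fat replicate 4 these lists were at -0.796 and -0.687, below their mean. Fn1, Tgfbi and the brightest Vcan probe set were at 2.17, 1.98 and 2.22 there. The SDs of the listed genes over the 8 arrays were small, from 9.69e-07 for Apoa1 to 2.17e-05 for Dcn. The part of stromal and liver cells in the members' levels was not tested. Mean levels were 6.5329 for the stromal list and 6.3854 for the liver list in every animal at this rounding.

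**Figure D5:**
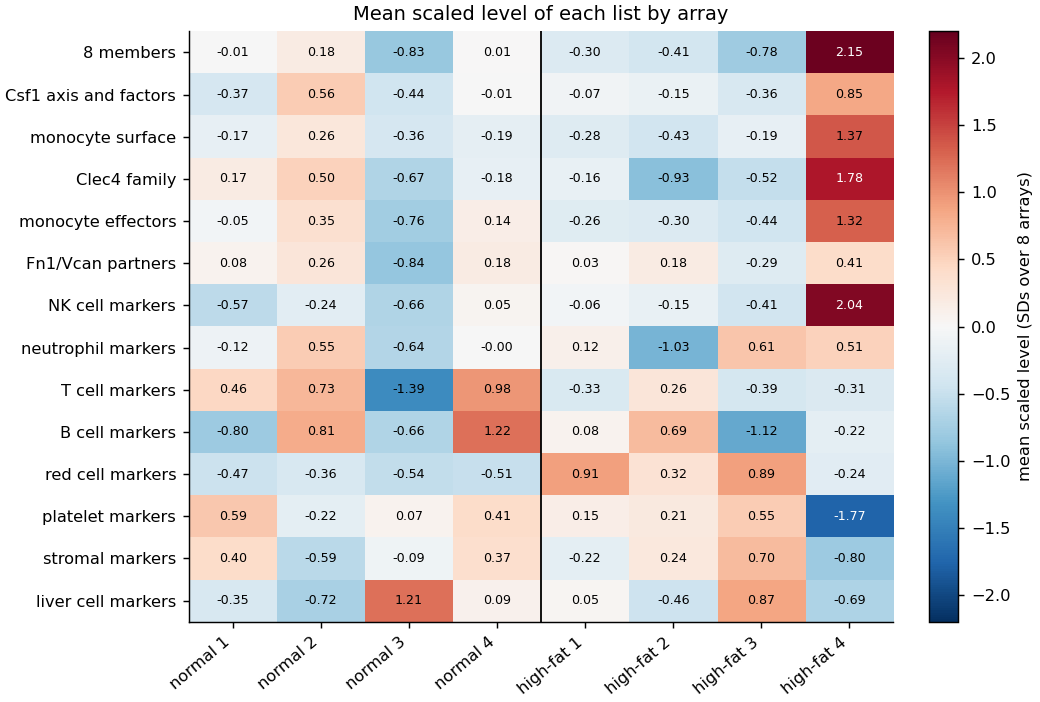
Mean scaled level (colour and printed number, SDs over the 8 arrays) of the 8 members, 5 lists of related monocyte genes and 8 lists of markers of other cells, in each array. High-fat replicate 4 is at 2.15 for the members and 2.04 for natural killer cell markers, and at -1.77 for platelet markers.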

How the data were processed

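RNA from whole blood of 4 normal-diet and 4 high-fat-diet rats, 200 ng each, was measured on Affymetrix 3' arrays, per the labels' protocols. Sample titles gave the groups and numbers. The values are those the authors deposited and read as log2 levels. Log base, background correction, normalization and probe summary are not given in the sources used here. Of 31099 probe sets, 57 controls were left out. Platform annotation gave 1 gene symbol for 20826 of the rest, several for 436 and none for 9780. All 12 member probe sets matched a RefSeq gene of the same symbol by gene number.

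The members and gene lists were chosen with earlier results of these data known. High-fat was tested against normal, two-sided, by lmFit and eBayes of limma 3.58.1 (R 4.3.3). P-values were adjusted by Benjamini and Hochberg's method over all 31042 probe sets and called at 0.05. The fit and the permutation test were tested on simulated data. Exact permutation tests were two-sided, over the 70 assignments of 4 against 4 or all pairings of arrays. For correlations and lists a gene was represented by its probe set with the highest mean. Genes were named by a rule: all members, from each list of related genes the 3 with the smallest p, and the 5 genes most like the members. Further list genes with r over 0.9, the ligand Il34 and genes in the tissue check were named after their values were seen. Alternatives were quantile normalization, median centring, brighter probe sets only, a trended and robust eBayes, the replicate number as a block, means over a gene's probe sets, subtraction of diet means and leaving out each array. Precision is limited by the number of arrays.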

Additional observations from a re-analysis of the deposited data

Results flagged for a closer look

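Within groups of 4, an array was marked where its gap to the nearest other array took up nearly the whole range of the group, by Dixon's test at 95%. Chance marks about 1 in 20 independent groups, and 19 marks were made in 92 groups. The 92 groups share the same 8 animals and genes that move together, so their count cannot be set against that rate. High-fat replicate 4 accounted for 10 of the 19 marks. Its gap as a share of the range was 0.849 for Fcgr3a, 0.904 for Cebpb, 0.972 and 0.836 for the Vcan probe sets 1388142_at and 1388265_x_at, 0.836 for B4galt5 and 0.894 for Pilra. For mean scaled levels it was 0.837 for the 8 members, 0.865 for surface genes of monocytes, 0.898 for their effector genes and 0.854 for natural killer cell markers. Normal replicate 3 was marked as low for Csf1r (0.84), Adgre1 (0.93), Tgfbi (0.921), S100a4 (0.878) and the partners of fibronectin and versican (0.838).

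The remaining marks were on other animals. Normal replicate 2 was high for 1388265_x_at (0.917), normal replicate 4 low (0.891) and high-fat replicate 1 high (0.918) for Cd36, and high-fat replicate 2 high for T cell markers (0.88).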

How the results depend on the processing

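No member probe set passed the threshold under any alternative, the lowest adjusted p among their alternatives being 0.191 by limma with centred arrays. Over all probe sets 0 passed by limma, and 32 with quantile normalization on top, none of them a member. The labels do not give the replicate numbers as a pairing of animals. Correlations of same-numbered deviations were -0.121, 0.197, 0.355 and 0.14, which cannot exclude an effect shared by a number. The fit with the replicate block called 0 probe sets and 0 members.

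Of 28 pairs of genes 21 passed as reported and in each alternative run except without high-fat replicate 4, where 14 passed, 13 with positive r and 1 with negative r. Of the 8 genes, between 1 and 8 had a higher high-fat mean over the arrays left out, 1 without high-fat replicate 4 and 4 without normal replicate 3. Diet differences that changed sign when an array was left out had these ranges in within-group SDs: -0.547 to 0.739 for Csf1r, -0.898 to 0.541 for Adgre1, -0.826 to 0.664 for Clec4a3, -1.58 to 0.3 for Fcgr3a, -0.981 to 0.559 for Tgfbi, -0.56 to 0.688 for Cebpb, -0.265 to 0.978 for 1371232_a_at and -0.0142 to 1.04 for 1388054_a_at. Among other genes they were -0.491 to 0.697 for Clec4a1, -1.13 to 0.18 for Clec4a, -0.562 to 0.441 for Clec7a, -0.486 to 0.842 for Nfkbia, -0.558 to 0.818 for Cyfip1, -0.556 to 0.672 for B4galt5, -0.995 to 0.486 for Pilra and -0.874 to 0.64 for S100a4.

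Centring turned 1371233_at to -0.532, 1388054_a_at to -0.584, 1388265_x_at to -0.195, Egr1 to -0.921, Cx3cr1 to -1.1, Ccr2 to -0.59, Clec7a to -0.226, Ctsb to -0.795 and Itgb1 to -0.124. Quantile normalization turned Clec7a to -0.463 and Itgb1 to -0.707, and put Clec4a, Ctsb, Il1b, Tgfb1 and Itga5 at 0. The cause was not tested. The small number of arrays limits all of these values.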
